A study of Mus musculus with 11 samples.

Results

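The genes examined were the 48 proteasome genes of the mouse liver count table, chosen by name as every row whose gene symbol is *Psma*, *Psmb*, *Psmc*, *Psmd*, *Psme*, *Psmf* or *Psmg* followed by a number, out of 46603 rows. Of these, 47 passed the filter on low counts and were tested. The exception was *Psmb11*, the beta subunit of the thymus proteasome, which had 0 counts in all 11 mice. That allows up to about 3 counts in a library. By the total counts of each library alone, this is 0.187 to 0.406 CPM (counts scaled to a common library size).

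Liver RNA was measured in 11 obese, leptin-deficient *ob/ob* males kept on the Amylin Liver NASH (AMLN) diet, a high-fat, high-fructose feed with added cholesterol that induces metabolic dysfunction-associated steatohepatitis (MASH). Diet began at 5 to 6 weeks of age and ran for 15 weeks before treatment and on through it. For 8 weeks, 7 mice received vehicle (0.5% carboxymethyl cellulose) and 4 received INT-767 at 10 mg/kg by gavage once daily, INT-767 being a bile acid analog that activates the receptors FXR and TGR5. Both groups share the genotype, the diet and an earlier liver biopsy, and no lean or chow-fed mouse was analysed here, so values describe treatment within diseased liver only. Poly(A) RNA was taken from pieces of the left lateral lobe, so each value is an average over all cells of the tissue, and fewer cells of a type and less RNA per cell cannot be told apart. Each library held 7381211 to 16022459 counts.

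The proteasome is the protease that degrades proteins tagged with ubiquitin. Its barrel-shaped 20S core is built of alpha rings, which gate the entrance, around beta rings, which carry the proteolytic sites, and is capped by a 19S particle whose ATPase base unfolds the substrate and whose lid removes the ubiquitin. Under interferon, *Psmb8*, *Psmb9* and *Psmb10* replace the catalytic subunits *Psmb5*, *Psmb6* and *Psmb7* to form the immunoproteasome, which favours peptides for class I antigen presentation, and when proteasome activity falls the transcription factor NRF1 (*Nfe2l1*) induces subunit genes through antioxidant response elements.

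The promoters are shown because both control routes act through short DNA motifs. RefSeq windows of 250 bases before to 50 bases after the gene start (GRCm38.p6) were found for 40 of the 48 genes, in 43 windows, and both strands were searched. The antioxidant response element core TGACNNNGC was in 6 of the 43 windows (13.95%) against 12.4% of all 32851 promoter windows, in *Psmb5*, *Psmb6*, *Psmc6*, *Psmd9*, *Psmd12* and *Psme4*. The interferon-stimulated response element core (GAAA, any pair of bases, then GAAA) was in 5 windows (11.6%) against 3.44% of all, in *Psmb3*, *Psmd4*, *Psmd9*, *Psme1* and *Psmg4*. *Psmb8*, *Psmb9* and *Psmb10* were not among the genes with either core, and 8 of the 48 genes had no window. The motifs share no letters that force an overlap, and a match describes the letters only. Below are 2 windows with each core, in gene orientation with 15 bases on each side, the core in capitals, and reverse-complemented where it lies on the opposite strand (*Psmc6*, *Psmb3* and *Psmd4*).
Psmb5, minus strand, chr14:54618019-54618057: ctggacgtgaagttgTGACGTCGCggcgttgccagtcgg
Psmc6, plus strand, chr14:45329582-45329620: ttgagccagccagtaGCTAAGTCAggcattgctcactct
Psmb3, plus strand, chr11:97703256-97703295: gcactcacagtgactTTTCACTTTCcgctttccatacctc
Psmd4, minus strand, chr3:95042670-95042709: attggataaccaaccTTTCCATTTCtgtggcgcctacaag

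Before treatment is compared, 4 libraries need to be set out. In Vehicle 1, Vehicle 7, INT-767 2 and INT-767 4, levels over all tested genes fell both with the GC content of the gene (Spearman's rho -0.42, -0.12, -0.26 and -0.24) and with transcript length (-0.18, -0.23, -0.29 and -0.31), a description across genes with no test. No other library was below -0.1 for both. Mitochondrial transcripts took 5.74%, 4.71%, 6.87% and 6.63% of counts in these libraries, 3.35% to 4.33% in the other 5 vehicle mice, and 5.59% and 4.43% in INT-767 1 and INT-767 3. They are 2 of the 4 treated and 2 of the 7 vehicle mice. Values without the 4 libraries are given where they matter.

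No proteasome gene changed past the threshold with INT-767. With edgeR's quasi-likelihood test at an adjusted p under 0.05, 0 of the 47 tested genes were higher and 0 were lower, where 9.72% of all 13880 tested genes were called (5.04% higher and 4.68% lower). At an unadjusted p under 0.05, 2 of 47 genes (4.26%) passed, against 32.9% of all tested genes. DESeq2 called 1 member, *Psmd1*, where it called 20.3% of all genes. Elsewhere, genes are described as called by the edgeR test unless another is named. The median log2 fold change of the 47 genes was 0.15, against -0.01 for all tested genes, and 28 were above 0 (59.6% against 49.4%). All fitted log2 fold changes lay between -0.61 (*Psmd2*) and 0.62 (*Psmd13*). Intervals of 95% stayed within a log2 change of 1 either way for 34 of the 47 genes, and within 1.5-fold for 22. Without the 4 libraries above, which include 2 of the 4 treated mice, the median was 0.07 and again 0 members were called. That fit called 856 of all 14363 genes tested then higher and 879 lower. Without INT-767 4 alone the median of the members was 0.01. With an offset for GC content and length the median of the members turned to -0.057, while that of all tested genes was 0.01. Scaling by library size alone moved the median of all tested genes from -0.01 to -0.22 and that of the members to -0.059, so members moved down with all genes. A change of direction or a lower call under that scaling, where given for a gene below, includes this common shift.

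**Figure D1:**
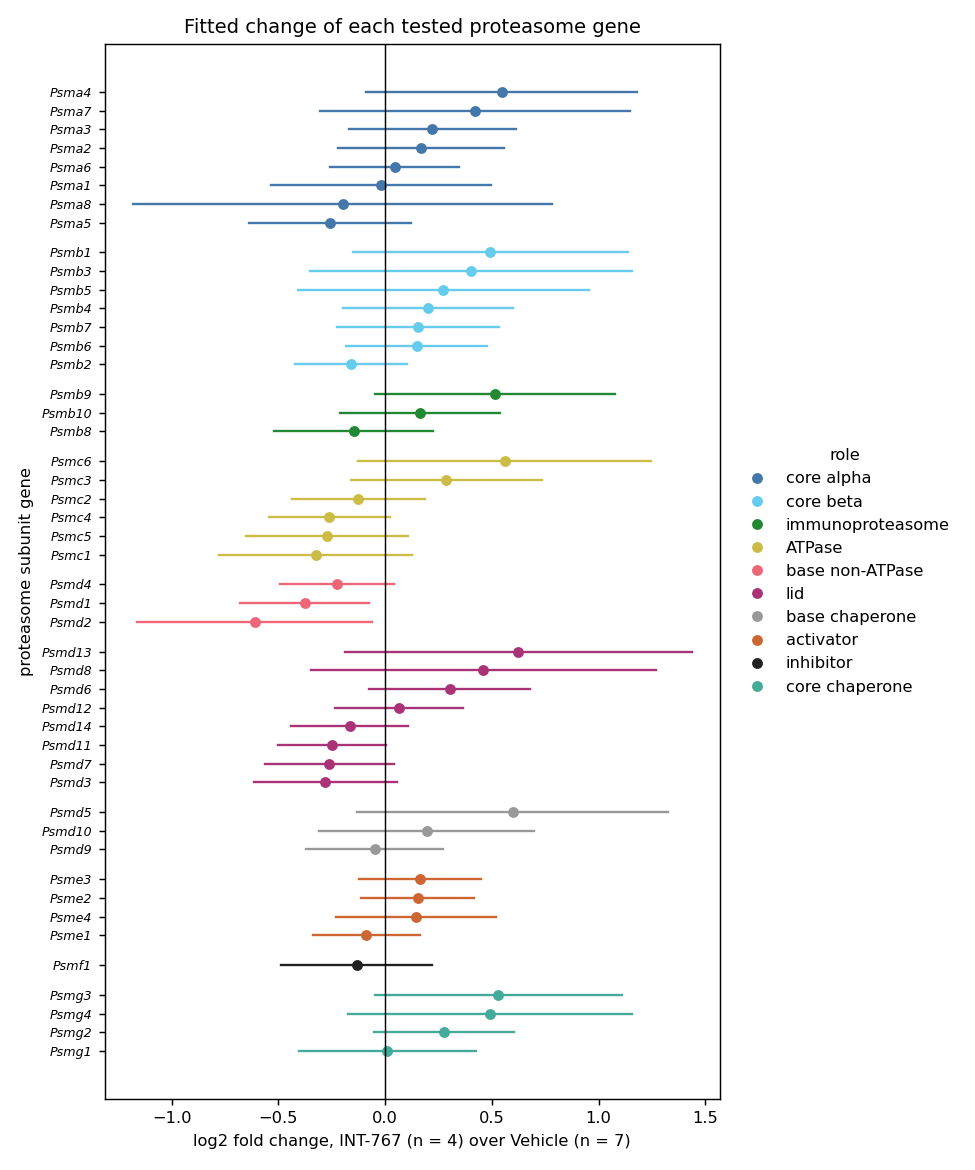
Log2 fold change of INT-767 (n = 4) over Vehicle (n = 7) for the 47 tested proteasome genes, grouped by role, with 95% intervals as lines (edgeR). Points lie between -0.61 and 0.62, and all 3 base non-ATPase genes are left of 0 while all 4 core chaperone genes are right of it.

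The core alpha genes, which form the gate of the barrel, gave 5 fitted values above 0 and 3 below, with a median log2 fold change of 0.11 and 0 called. *Psma4* was the highest of them. Its levels in vehicle mice ran from 63.4 to 157 CPM with a median of 84.3, and INT-767 mice had 97.3, 154, 94.6 and 227 CPM. The groups overlapped, INT-767 4 being the highest mouse and Vehicle 1 the next, and the log2 fold change was 0.55 ± 0.29 (SE; edgeR adjusted p = 0.204). Without the 4 libraries it was 0.28. *Psma5* was the lowest member at -0.26 (edgeR adjusted p = 0.304), with vehicle mice from 27.4 to 43.9 CPM and INT-767 mice from 22.9 to 35.4 CPM. With the offset for GC content and length, *Psma5* was called lower at -0.43 (edgeR adjusted p = 0.0432), as was *Psma1* at -0.41 (edgeR adjusted p = 0.0221). That offset called 13.6% of all genes. Of the 75-base windows of *Psma5*, 35.2% also occur in other loci, including *Gm8394* and *Gm12989*, so its counts are uncertain. *Psma8*, a testis form of the core alpha subunit, was the lowest member tested, at 0.611 RPKM (CPM divided by transcript length in kilobases) on average, where the other alpha genes had 27.2 to 150 RPKM.

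Core beta genes gave 6 values above 0 and 1 below, with a median of 0.20 and 0 called. The highest was *Psmb1*, a structural beta subunit, at 142 ± 50.3 CPM in vehicle mice (SD, n = 7) and 199 ± 83.99 CPM in INT-767 mice (SD, n = 4). Its log2 fold change was 0.49 (edgeR adjusted p = 0.252), and 0.18 without the 4 libraries. *Psmb2*, also structural, was the only one below 0, at -0.16 (edgeR adjusted p = 0.355), and was among the steadiest, the highest mouse having 1.42 times the level of the lowest.

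The 3 catalytic genes differed in how much they varied between mice. *Psmb5*, which cuts after hydrophobic residues, lies at chr14:54614119-54618022. It had 23.1 to 56.3 CPM in vehicle mice (median 27.3), and 24.8, 45.2, 24.5 and 64.2 CPM in INT-767 mice. Values above 40 CPM were seen in both groups, in Vehicle 1, Vehicle 7, INT-767 2 and INT-767 4, and all other mice were below 30 CPM. The log2 fold change was 0.27 (95% interval -0.41 to 0.95, edgeR adjusted p = 0.545) and turned to -0.07 without those 4 libraries. Shared sequence with *Gm3375* and other loci covers 36.8% of its windows. *Psmb6*, the caspase-like subunit, had 77.9 to 127 CPM in vehicle mice (median 99.7) and 101, 125, 98.6 and 119 CPM in INT-767 mice, with a log2 fold change of 0.15 (-0.18 to 0.48, edgeR adjusted p = 0.499). *Psmb7*, the trypsin-like subunit, had 42.8 to 77.7 CPM in vehicle mice (median 57.5) and 65.2, 83.7, 52.2 and 62.2 CPM in INT-767 mice, with a log2 fold change of 0.16 (-0.22 to 0.53, edgeR adjusted p = 0.534). In both genes the groups overlapped. With the offset for GC content and length, which left the median of all tested genes at 0.01, the log2 fold change was -0.023 for *Psmb6* and -0.20 for *Psmb7*. Both were also below 0 under scaling by library size alone, with the shift of all genes. Exons of *Nek6* on the other strand cover 11.8% of *Psmb7*.

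Of the immunoproteasome genes, 2 fitted values were above 0 and 1 below, and 0 were called. *Psmb9* (chr17:34181987-34187764) and *Psmb8* (chr17:34197721-34201454) lie close together in the major histocompatibility complex, on either side of the peptide transporter gene *Tap1*. *Psmb9*, the counterpart of *Psmb6*, had 12.5 to 23.6 CPM in vehicle mice (median 16.2) and 12.4, 28.6, 23.8 and 34.2 CPM in INT-767 mice. Of the 4 treated mice, 3 were above every vehicle mouse and INT-767 1 was below every one. The log2 fold change was 0.51 (95% interval -0.05 to 1.08, edgeR adjusted p = 0.181). It rested on single libraries: leaving out INT-767 1 gave 0.74 (edgeR adjusted p = 0.0464), and leaving out INT-767 4 gave 0.30 (edgeR adjusted p = 0.505). Without INT-767 1, 1007 of all 13985 genes tested then were called higher. Without the 4 libraries the log2 fold change of *Psmb9* was 0.23.

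*Psmb8*, the counterpart of *Psmb5*, had 14.97 to 24.0 CPM in vehicle mice (median 17.4) and 13.6, 17.8, 18.9 and 15.4 CPM in INT-767 mice. *Psmb10*, the counterpart of *Psmb7* (chr8:105935735-105938444), had 23.5 to 39.4 CPM in vehicle mice (median 27.1) and 29.8, 37.6, 36.3 and 26.3 CPM in INT-767 mice. Treated mice stayed inside or close to the vehicle range for both, with log2 fold changes of -0.15 (-0.52 to 0.22) and 0.16 (-0.21 to 0.54). Under scaling by library size alone *Psmb10* was at -0.052, a move about as large as that of all genes. Neither passed in edgeR, at adjusted p = 0.546 for *Psmb8* and 0.509 for *Psmb10*. Exons of *Gm20496* on the other strand cover 14.7% of *Psmb8*, and whether the counting used strand is not given in the sources used here.

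Levels per length place the inducible subunits below the constitutive ones. Averaged over the 11 mice, *Psmb8*, *Psmb9* and *Psmb10* stood at 10.8, 14.8 and 23.1 RPKM, and *Psmb5*, *Psmb6* and *Psmb7* at 39.3, 130 and 53.1 RPKM. The ratio of *Psmb9* to *Psmb6* per length was 0.102 ± 0.0156 in vehicle mice (SD, n = 7) and 0.130 ± 0.0415 in INT-767 mice (SD, n = 4). That of *Psmb8* to *Psmb5* was 0.337 ± 0.127 and 0.269 ± 0.125, and that of *Psmb10* to *Psmb7* was 0.449 ± 0.128 and 0.448 ± 0.112. In all 3 pairs the ranges of the groups overlapped.

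**Figure D2:**
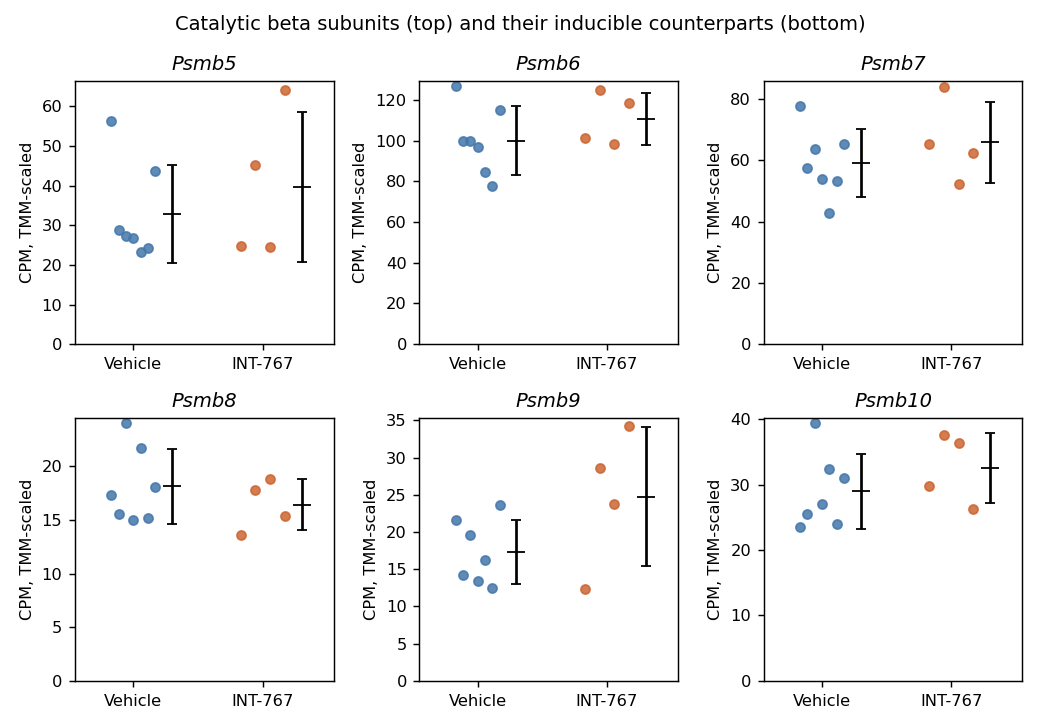
CPM per mouse (TMM-scaled, axes from 0) of the catalytic genes *Psmb5*, *Psmb6* and *Psmb7* and of *Psmb8*, *Psmb9* and *Psmb10*, with mean and SD in black for 7 Vehicle and 4 INT-767 mice. The groups overlap in every panel, and *Psmb9* in INT-767 mice runs from 12.4 to 34.2 CPM.

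The ATPase genes, whose products form the ring that unfolds and threads the substrate, gave 2 values above 0 and 4 below, with a median of -0.19 and 0 called. *Psmc6* was highest. Vehicle mice had 61.9 to 167 CPM (median 73.0) and INT-767 mice 92.4, 160, 103 and 227 CPM, the groups overlapping, with a log2 fold change of 0.56 ± 0.32 (SE; edgeR adjusted p = 0.223). Its highest mouse had 3.66 times the level of its lowest, and 1.23 times once trends on GC content and length were taken out of each library, where the log2 fold change became -0.10. *Psmc1* was lowest at -0.33 (edgeR adjusted p = 0.277), with vehicle mice from 65.9 to 113 CPM and INT-767 mice at 97.0, 64.8, 83.8 and 45.3 CPM. INT-767 4 was therefore the highest mouse for *Psmc6* and the lowest for *Psmc1*, although both proteins sit in the same ring.

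All 3 base non-ATPase genes, which encode the scaffold and ubiquitin-binding subunits of the 19S base, were fitted below 0, with a median of -0.38. The edgeR test called none of them, but each was called lower under some alternative: *Psmd1* by DESeq2 (adjusted p = 0.0361), *Psmd2* and *Psmd1* by limma-voom with sample weights (adjusted p = 0.0290 and 0.0494; 20.7% of all genes called), and *Psmd4* and *Psmd1* by edgeR under scaling by library size alone (adjusted p = 0.0420 and 0.0389; 9.78% of all genes called). *Psmd2* (chr16:20651652-20663414) had 98.7 to 177 CPM in vehicle mice (median 153) and 137, 84.6, 105 and 49.3 CPM in INT-767 mice. The ranges overlapped, and 2 treated mice were below every vehicle mouse. Its log2 fold change was -0.61 ± 0.25 (SE; edgeR adjusted p = 0.122), and -0.39 without the 4 libraries. *Psmd1* (chr1:86064387-86139151), named here after its values were seen, had 101 to 127 CPM in vehicle mice (median 113) and 100, 85.4, 92.8 and 66.5 CPM in INT-767 mice. Every treated mouse was below every vehicle mouse, an exact two-sided Mann-Whitney p of 0.00606, the smallest that 7 against 4 mice can give. The log2 fold change was -0.38 ± 0.14 (SE), and edgeR's adjusted p was 0.0925. Of all tested genes, 7.51% had groups that did not overlap, and of the proteasome genes 2 of 47 did. Without the 4 libraries the log2 fold change of *Psmd1* was -0.26. *Psmd4*, a ubiquitin receptor, had a log2 fold change of -0.23 (edgeR adjusted p = 0.211).

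Lid genes split evenly, 4 above 0 and 4 below, with a median of -0.05 and 0 called. *Psmd11*, a scaffold subunit also named after its values were seen, was the other gene without overlap. Vehicle mice had 89.3 to 107 CPM and INT-767 mice 86.1, 87.6, 82.1 and 71.3 CPM. The gap was narrow, with a log2 fold change of -0.25 (edgeR adjusted p = 0.157), and -0.45 under scaling by library size alone (edgeR adjusted p = 0.0396). *Psmd3* was lowest at -0.28 (edgeR adjusted p = 0.213), with vehicle mice from 56.0 to 101 CPM and INT-767 mice from 65.8 to 75.5 CPM. Without Vehicle 1 *Psmd3* was called lower, at -0.36 (edgeR adjusted p = 0.0489), as were 1370 of all 13898 genes tested then. *Psmd14*, the enzyme that removes ubiquitin, had a log2 fold change of -0.16, and was called lower with the offset for GC content and length, at -0.54 (edgeR adjusted p = 0.0405; 13.6% of all genes called). At the other end, *Psmd13* (chr7:140881968-140898643) had 64.6 to 183 CPM in vehicle mice (median 77.1) and 74.8, 159, 91.8 and 285 CPM in INT-767 mice. Vehicle 1 was above all treated mice but INT-767 4. The log2 fold change was 0.62 ± 0.38 (SE; edgeR adjusted p = 0.251), and 0.15 without the 4 libraries. Exons of *Sirt3* on the other strand cover 10.1% of *Psmd13*.

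Within the 19S particle, levels of *Psmd8*, a lid subunit named after its values were seen, and of *Psmd2* ran in opposite directions in several mice. *Psmd8* was the most abundant member per length, at 202 RPKM on average, and *Psmd2* had 42.3 RPKM. In vehicle mice *Psmd8* ran from 167 to 512 CPM (median 217), and in INT-767 mice it was at 181, 390, 259 and 679 CPM. Vehicle 1, Vehicle 7, INT-767 2 and INT-767 4 were the 4 highest mice for *Psmd8* and INT-767 4, INT-767 2, Vehicle 1 and INT-767 3 the 4 lowest for *Psmd2*. Per length, the ratio of *Psmd8* to *Psmd2* was 2.06 to 9.98 in vehicle mice (median 2.48) and 2.54, 8.86, 4.76 and 26.5 in INT-767 mice, a 12.9-fold range over the 11 mice that crossed the groups. The ratio of *Psmd13* to *Psmd2* had a 13.7-fold range. With the trend on GC content and length removed, the highest mouse still had 3.99 times the lowest for *Psmd8* and 2.93 times for *Psmd2*. The part of the mitochondrial share in this spread was not tested.

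**Figure D3:**
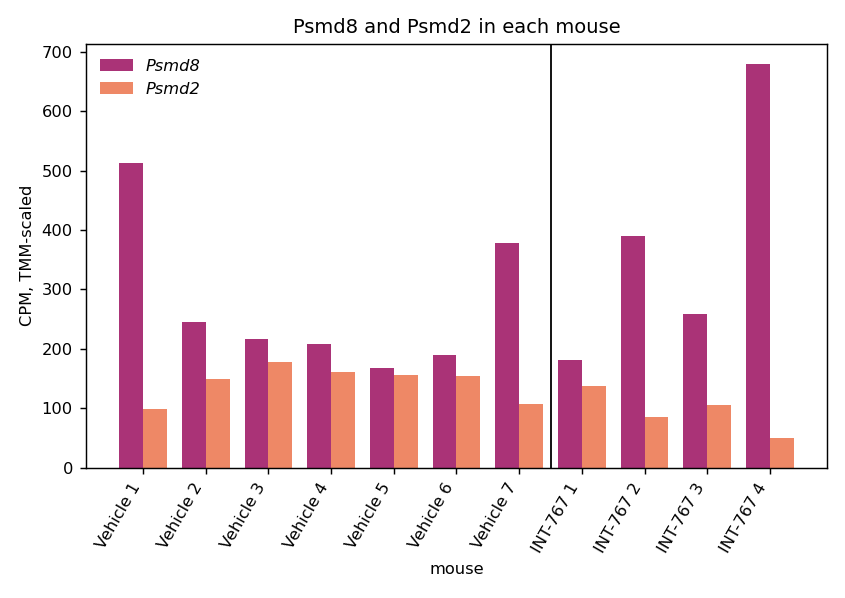
CPM (TMM-scaled, not per length) of *Psmd8* and *Psmd2* in each of the 7 Vehicle and 4 INT-767 mice, to be compared between mice within a gene. *Psmd8* runs from 167 CPM in Vehicle 5 to 679 CPM in INT-767 4, where *Psmd2* is lowest at 49.3 CPM.

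For each chaperone and regulator gene of the particle the groups overlapped. Of the base chaperones, which guide assembly of the 19S base, *Psmd5* was highest with a log2 fold change of 0.60 (edgeR adjusted p = 0.221), and 0.34 without the 4 libraries, and *Psmd9* lowest at -0.05, with 25.5% of its exons under *Gm26745* on the other strand and 24.3% of its windows shared with that gene. All 4 core chaperone genes, which assemble the 20S barrel, were above 0, from *Psmg1* at 0.01 to *Psmg3* at 0.53 (edgeR adjusted p = 0.180). *Psmg1* turned below 0 under several alternatives, among them scaling by library size alone or upper quartiles, limma-voom, the replicate block and the offset for GC content and length. Their summed level did not overlap, by a narrow gap, at 36.2 to 46.55 CPM in vehicle mice and 46.74 to 55.98 CPM in INT-767 mice. No other role had a sum that separated the groups. Of all tested genes taken singly, 7.51% had groups without overlap, and no such share was computed for sums of genes. Without the TMM factors (1.12 in Vehicle 7 and 0.964 in INT-767 3) these sums would overlap. The activators, caps that open the core without ubiquitin, included the member with the narrowest range: *Psme1* and *Psme2*, the interferon-induced PA28 pair, varied 1.32-fold and 1.34-fold over the 11 mice. Of the windows of *Psme2*, 22.9% are shared with *Psme2b*, so its counts are uncertain. The log2 fold changes of *Psme1* and *Psme2* were -0.09 (-0.34 to 0.16) and 0.15 (-0.11 to 0.42), and all 4 activator intervals were within 1.5-fold. *Psme3*, the nuclear PA28 gamma subunit, was the highest activator at 0.16 (edgeR adjusted p = 0.389) and turned below 0 under scaling by library size alone. The inhibitor *Psmf1* had a log2 fold change of -0.13.

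The spread between mice crossed the groups. Over the 47 genes, the highest mouse had a median of 1.91 times the level of the lowest, against 2.76 times over all tested genes. INT-767 4 was the highest mouse for 14 genes and the lowest for 11, and Vehicle 3 was the highest for 13. Vehicle 5 was the lowest for 13 and Vehicle 6 for 10. The summed level of all members was 2838 to 4413 CPM in vehicle mice (mean 3478 ± 563, SD, n = 7) and 3187 to 4763 CPM in INT-767 mice (mean 3828 ± 763, SD, n = 4). Removing the GC content and length trends library by library narrowed the range between mice for 29 of the 47 genes and left the median at 1.91.

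**Figure D4:**
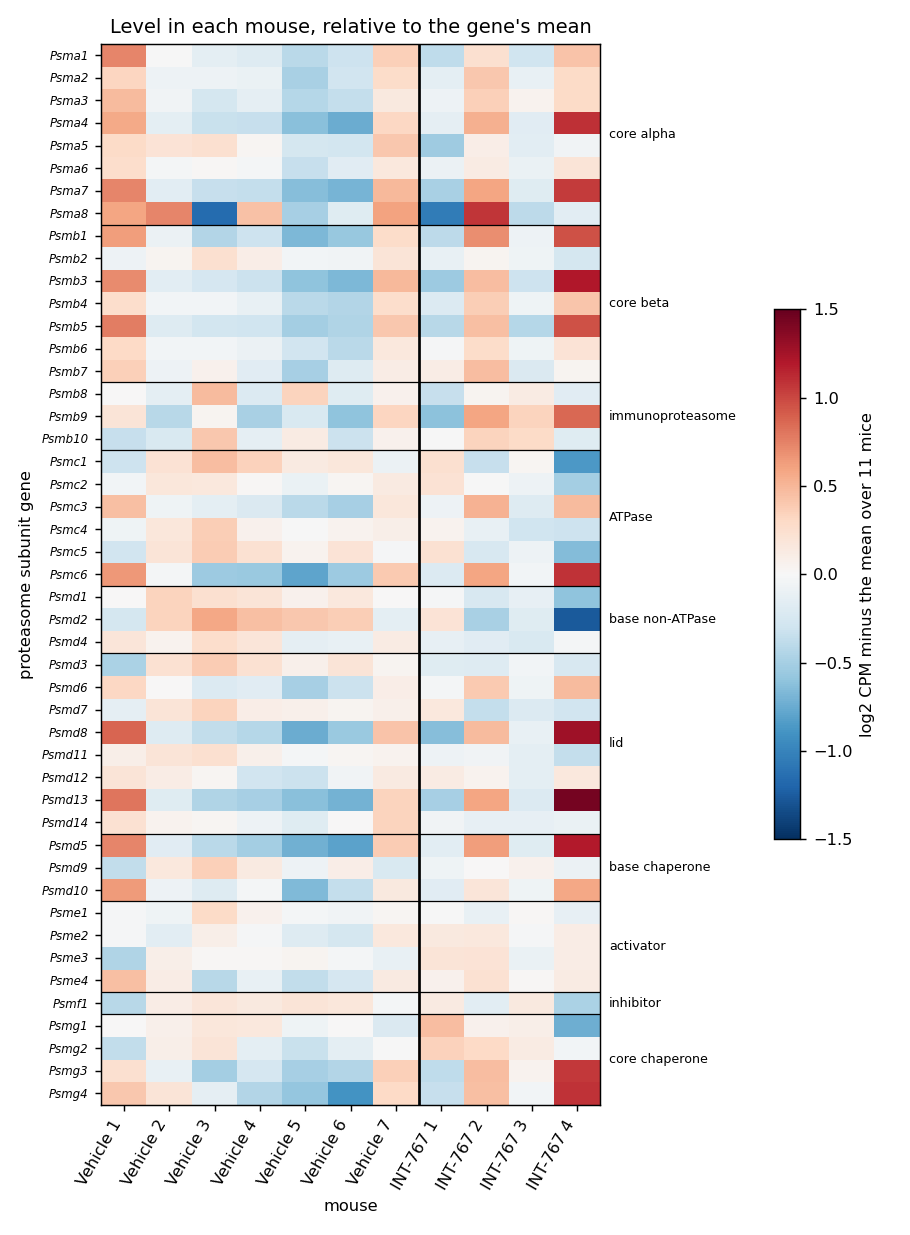
Log2 CPM of the 47 tested proteasome genes in each mouse, minus the mean of the gene over the 11 mice (red higher, blue lower), with genes in rows by role and a line between Vehicle and INT-767. Vehicle 1, Vehicle 7, INT-767 2 and INT-767 4 are red for *Psma7*, *Psmb3*, *Psmb5*, *Psmc6*, *Psmd8*, *Psmd13* and *Psmd5*, and INT-767 4 is blue for *Psmd2*, *Psmc1* and *Psmc5*.

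Genes around the proteasome were read from 4 lists. Of 11 associated and assembly factors 0 were called, and *Pomp*, which matures the core, had a log2 fold change of -0.18 (edgeR adjusted p = 0.327). Of 9 genes of transcription control 0 were called, with *Nfe2l1* at -0.09 and *Nfe2l2* (NRF2) at 0.13. The 9 values ran from -0.58 for *Mafk* (edgeR adjusted p = 0.0665) to 0.47 for *Ngly1* (edgeR adjusted p = 0.118), with 5 above 0. *Nfe2l1* was above 0, at 0.18, with the offset for GC content and length. *Nfe2l2* was below 0 under scaling by library size alone, a move about as large as that of the median of all tested genes. Among 16 ubiquitin genes, activating enzymes and shuttle factors, 1 rose, near the 5.04% of all tested genes that did. This was *Uba6*, an activating enzyme for ubiquitin and FAT10, at 7.24 to 14.6 CPM in vehicle mice and 15.1, 20.2, 15.5 and 20.8 CPM in INT-767 mice, every treated mouse being higher, with a log2 fold change of 0.69 ± 0.20 (SE; edgeR adjusted p = 0.0474).

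Of the class I antigen processing genes, 2 of the 16 tested rose, where 5.04% of all tested genes did, and the list as a whole had 8 values above 0 and a median of 0.02. Among those not called, *Tap1* and *Tap2*, the peptide transporter, were at -0.32 and -0.48 and *Irf8* at -0.57, while *H2-D1* was at 0.63 and *B2m* at 0.28. *Erap1*, the peptidase that trims peptides in the endoplasmic reticulum, had 67.5 to 137 CPM in vehicle mice and 127, 205, 143 and 156 CPM in INT-767 mice. Only Vehicle 1 reached into the treated range, and the log2 fold change was 0.79 ± 0.22 (SE; edgeR adjusted p = 0.0450). *H2-K1*, a class I heavy chain, had 808 to 1447 CPM in vehicle mice and 1124, 2431, 1559 and 2576 CPM in INT-767 mice. INT-767 1 lay within the vehicle range and the other 3 treated mice above it, with a log2 fold change of 0.84 ± 0.24 (SE; edgeR adjusted p = 0.0451). Without the 4 libraries it was 0.51 for *H2-K1* (edgeR adjusted p = 0.0924), 0.79 for *Erap1* (0.0200) and 0.63 for *Uba6* (0.0616). All 3 called genes were close to the threshold and lost the call without any of several single mice, among them INT-767 2 (edgeR adjusted p = 0.166 for *Uba6*, 0.183 for *Erap1* and 0.174 for *H2-K1*). Scaling by library size alone also ended the 3 calls (edgeR adjusted p = 0.133, 0.0807 and 0.0800). Sequence shared with other loci was checked for the proteasome genes only, not for these 3 genes or *H2-D1*.

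Of the markers of cell types in the tissue, some macrophage, stellate cell and endothelial genes fell with treatment. The labelled tissue was borne out by hepatocyte genes, the 8 markers summing to 59192 CPM or more in every mouse with *Alb* the most abundant, and 0 of 8 were called (median log2 fold change 0.19). Of 15 macrophage markers, 4 fell (*Csf1r*, *Cd68*, *Itgam* and *Cd9*), where 4.68% of all tested genes did, and the median was -0.74, *Lyz2* being the most abundant. Only *Clec4f* was above 0, at 0.53. The macrophage sum was 856 to 1281 CPM in vehicle mice and 582, 585, 548 and 1229 CPM in INT-767 mice, so INT-767 4 stayed within the vehicle range. For each of the 4 that fell, however, every treated mouse, INT-767 4 included, was below every vehicle mouse. Of 8 stellate cell and myofibroblast markers, 2 fell (*Col1a1* and *Pdgfrb*, median -0.55). Another 3 were above 0, *Lum* at 0.50, *Dcn* at 0.22 and *Lrat* at 0.05. Of 8 endothelial markers 1 fell (*Vwf*, median -0.37) and 2 were above 0, *Clec4g* at 0.21 and *Oit3* at 0.10. Of the 11 tested lymphocyte markers and 5 cholangiocyte markers 0 were called, with medians of -0.39 and -0.61. No marker was at 0 in all mice. Their part in the proteasome values was not tested.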

How the data were processed

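Poly(A) liver RNA of 7 Vehicle and 4 INT-767 mice was sequenced by the authors (stranded TruSeq kit, 75 cycles) and aligned with STAR to GRCm38 with Ensembl release 84. The submitters' processing notes give STAR version 2.4.0 and the supplementary methods another. No counting program or strand setting was named by any source consulted. The authors deposited whole-number read counts per gene, not normalized, 1 column per mouse. Groups came from the sample labels, and nothing states that mice share a cage, litter or batch.

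Counts were fitted with edgeR 4.0.16 (R 4.3.3; TMM factors, filterByExpr defaults with a minimum count of 10, robust quasi-likelihood test, Benjamini-Hochberg over all 13880 tested genes, threshold 0.05, treatment as the only term). CPM values are TMM-scaled, except the limit for *Psmb11*, and RPKM divides CPM by the principal transcript length of GENCODE M21. The exact Mann-Whitney test used all 330 assignments of the mice. Gene coordinates are GRCm38 from GENCODE M21. The fits were tested on simulated data.

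Members, roles and related lists were chosen with earlier results of these data known. Named genes were any called member, the catalytic subunits and their counterparts, the highest and lowest member by log2 fold change of each role with 3 or more genes, untested members, called genes of the related lists, and *Nfe2l1*, *Nfe2l2* and *Pomp*. Other members and other genes of the lists were named after their values were seen. Alternatives were other normalizations and filters, limma-voom 3.58.1 with and without sample weights, DESeq2 1.42.0, a replicate block, an offset for GC content and length (lowess span 0.3), leaving out each mouse, and, chosen after seeing the data, leaving out the 4 libraries that fell with both GC content and length.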

Additional observations from a re-analysis of the deposited data

Results flagged for a closer look

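Of 60 groups of mice checked for a sample far from the others, 2 held one, and chance flags about 1 in 20. *Psme3* was lowest in Vehicle 1 at 40.3 CPM, the gap to the next vehicle mouse being 0.574 of the range of the group. *Psme1* was highest in Vehicle 3 at 104 CPM, with a gap of 0.655 of the range.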

How the results depend on the processing

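The counts of called proteasome genes changed under 6 alternatives. Scaling by library size alone called 3 lower (*Psmd4*, *Psmd11* and *Psmd1*), sample weights in limma-voom 2 lower (*Psmd2* and *Psmd1*), DESeq2 1 lower (*Psmd1*) and the offset for GC content and length 3 lower (*Psmd14*, *Psma1* and *Psma5*). Over all genes, the same settings called 1026, 1221, 1368 and 811 lower, in that order, of 13880 tested (13835 with the offset). Leaving out single mice gave 0 to 1 higher (*Psmb9*, without INT-767 1) and 0 to 1 lower (*Psmd3*, without Vehicle 1). Over all genes, 1007 were called higher without INT-767 1 and 1370 lower without Vehicle 1. The median log2 fold change of 0.15 became -0.059 under library size alone, -0.057 with the offset and -0.11 with the block and the offset, and ran from 0.01 to 0.18 on leaving out single mice. Under library size alone the median of all tested genes moved from -0.01 to -0.22, as far as that of the members. For the offset the cause was not tested. On leaving out single mice, calls over all genes ran from 164 higher and 110 lower without INT-767 2 to 1906 and 1370 without Vehicle 1.

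Replicate numbers did not pair the mice: deviations of same-numbered mice correlated at -0.69, 0.22, 0.15 and -0.48. With the replicate block, 0 proteasome genes and 0 of all genes were called by edgeR (1347 at an unadjusted p under 0.05), and the median of the members was 0.05. Vehicle 5, Vehicle 6 and Vehicle 7 have no treated mouse of the same number, so they add nothing to the treatment difference in that fit.

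Of 690 values under alternatives for 30 named genes, which leave out *Psmd11*, *Psma1* and *Psmd14*, 610 kept direction and side of the threshold, 43 lost a call, 8 gained one and 29 turned direction, none of the 29 past the threshold. Under library size alone the log2 fold change became -0.065 for *Psmb6*, -0.058 for *Psmb7*, -0.052 for *Psmb10*, -0.053 for *Psme3*, -0.18 for *Psmg1* and -0.095 for *Nfe2l2*. With the offset it was -0.023 for *Psmb6*, -0.20 for *Psmb7*, -0.10 for *Psmc6*, 0.041 for *Psmd9*, -0.12 for *Psmg1* and 0.18 for *Nfe2l1*. With block and offset it was -0.071 for *Psmb6*, -0.28 for *Psmb7*, -0.13 for *Psmc6*, -0.25 for *Psmg1* and 0.12 for *Nfe2l1*. *Psmg1* was also -0.066 with upper-quartile factors, -0.055 with at least 10 counts in every mouse, -0.044 with limma-voom and -0.13 with the block. Without the 4 libraries *Psmb5* was -0.070 and *Nfe2l2* -0.023. Leaving out single mice gave -0.072 to 0.45 for *Psmb5*, -0.17 to 0.20 for *Psmg1* and a highest of 0.011 for *Psmd9*.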
